A study of Mus musculus with 2 samples.

Results

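The genes described here are 34 immediate early and heat shock genes, 25 and 9 of the 31053 genes listed, taken by symbol from the deposited gene table of a single-cell RNA sequencing study of the mouse genital tubercle, the embryonic outgrowth that becomes the penis or the clitoris. They were measured in every barcode that held 2000 or more unique molecular identifiers (UMIs) and 500 or more genes and whose mitochondrial share did not exceed 10%. The tubercles came from wild-type C57BL/6 embryos of embryonic day 14.5 (Theiler stage 22), and the labels name no engineered allele and no agent in either group. Genotyping for sex put 3 males and 3 females of 2 litters into a pool per sex, and each pool gave 1 library, so embryos cannot be told apart. No difference between the sexes or between cell groups has a replicate check. Both libraries' values are therefore given throughout, every interval is an exact 95% interval for counting error only, and no test between groups was made.

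Immediate early genes are transcribed within minutes of a stimulus from factors already present in the cell, without new protein synthesis. Growth factor signalling reaches them through serum response factor and its partners at the CArG box, a motif in many of their promoters, and through CREB at the cyclic AMP response element. Many encode transcription factors (the Fos and Jun families, which pair to form AP-1, the Egr zinc finger factors, Atf3, Nr4a1, Klf factors and Myc), and others limit the signal, such as the phosphatase Dusp1 and the RNA-binding protein Zfp36. Heat shock proteins are chaperones that fold, hold or refold other proteins, and heat shock factor 1 activates their genes through repeats of the unit GAA and its reverse complement TTC. Both families are also known to be induced while tissue is dissociated with enzymes at warm temperature. Here embryos waited 2 hours on ice during genotyping and the tissue was then agitated in collagenase for 30 minutes at 37 °C, per the labels. No sample that was kept cold or not dissociated was analysed here, so transcripts present in the embryo and those made during the preparation cannot be told apart.

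The promoter stretches below show where the motifs of these pathways lie in members that differ in the results: the nearly identical Hspa1a and Hspa1b, Hspb1, the promoter that Hspe1 shares with Hspd1, Egr2 and Btg2. They come from the RefSeq table of build GRCm38.p6 and run 5′ to 3′ on the gene's strand. They are the 180 bases just before an annotated transcription start, except for Hspe1. Where a gene has several starts, a start whose stretch holds the motif was taken. The Egr2 stretch lies before an internal start, within the gene as annotated by GENCODE (67535475 to 67542188). For Hspe1 the stretch is the motif, whose first base is 89 bases before the start, with 6 bases on each side. It lies within the first exon of 1 annotated transcript of the divergent neighbour Hspd1. In the first 3, capitals mark a pair of heat shock units (GAANNTTC or TTCNNGAA). In Hspe1 they mark overlapping runs of 3 units, each 2 bases apart (GAA, TTC and GAA, or TTC, GAA and TTC), in Egr2 a CArG box and in Btg2 the cyclic AMP response element TGACGTCA.
Hspa1a (chr17:34972157-34972336, minus strand): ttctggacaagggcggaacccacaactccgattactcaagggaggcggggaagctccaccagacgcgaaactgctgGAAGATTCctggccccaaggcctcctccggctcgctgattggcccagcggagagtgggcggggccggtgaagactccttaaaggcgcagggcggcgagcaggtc
Hspa1b (chr17:34959239-34959418, minus strand): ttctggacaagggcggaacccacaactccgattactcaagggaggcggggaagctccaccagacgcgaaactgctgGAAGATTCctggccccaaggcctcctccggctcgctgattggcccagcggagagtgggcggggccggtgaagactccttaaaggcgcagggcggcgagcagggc
Hspb1 (chr5:135887739-135887918, plus strand): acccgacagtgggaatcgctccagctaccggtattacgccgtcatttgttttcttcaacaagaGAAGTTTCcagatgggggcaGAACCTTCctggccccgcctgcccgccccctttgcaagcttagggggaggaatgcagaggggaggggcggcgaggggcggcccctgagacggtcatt
Hspe1 (chr1:55088053-55088082, plus strand): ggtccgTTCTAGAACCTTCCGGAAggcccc
Egr2 (chr10:67537386-67537565, plus strand): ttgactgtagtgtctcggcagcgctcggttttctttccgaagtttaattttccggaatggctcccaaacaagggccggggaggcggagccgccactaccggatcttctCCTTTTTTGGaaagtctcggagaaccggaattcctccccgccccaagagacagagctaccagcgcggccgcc
Btg2 (chr1:134079156-134079335, minus strand): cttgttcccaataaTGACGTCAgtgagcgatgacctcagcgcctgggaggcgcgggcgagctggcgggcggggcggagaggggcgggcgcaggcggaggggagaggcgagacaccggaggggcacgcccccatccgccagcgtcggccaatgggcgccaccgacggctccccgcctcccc

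Promoter windows were found for 28 of the 34 members. Egr1, Egr3, Ier2, Myc, Hspa8 and Hsp90aa1 are named without one. The 250 bases before each start were searched on both strands, and a gene counts where any of its windows holds the motif. A pair of heat shock units was present in 14.5% of the 27025 genes with a window. It was present in 6 of 7 heat shock members with a window (Hspa1a, Hspa1b, Hsph1, Hspe1, Hspd1 and Hspb1). It was present in 3 of 21 immediate early members, Fosl2, Jun and Egr2. Runs of 3 units, which contain the pair, were present in 0.514% of genes and in Hspe1 and Hspd1. A CArG box was present in 1.62% of genes and in Egr2 and Zfp36. The cyclic AMP response element was present in 1.77% and in Dusp1 and Btg2. The AP-1 motif TGACTCA or TGAGTCA was present in 5.16% and in no member with a window. Hspa1a (34969190 to 34972156) and Hspa1b (34956436 to 34959238) are protein-coding genes on the minus strand of chromosome 17 in the GENCODE annotation of the same build. Their promoter stretches were identical at 179 of 180 positions. Their transcripts shared 58.8% and 62.3% of their stretches of 50 bases, but 0 of 451 in the last 500 bases, the end that a 3′ kit reads.

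The libraries held 130105692 male and 144515562 female UMIs and gave 17254 and 18711 cells, with a median of 5169.5 and 5242 UMIs. The barcodes of 82 cells occurred in both libraries, and leaving these out is among the alternatives tried. Clusters were made without the 34 genes and without the other lists of pathway genes used below. Mesenchyme-like cells made up 94.5% and 96.1% of the cells (16301 male and 17982 female), with a median of 5069 and 5167 UMIs. Endothelium-like (196 and 126), epithelium-like (201 and 135), immune-like (95 and 61), glia and neural crest-like (59 and 78) and erythroid-like cells (149 and 266) were compared with them. The immune-like cluster was also led by the mast cell genes Cma1 and Cpa3. Skeletal muscle-like cells (36 and 62) fell under the limit of 50 cells in the male library, and smooth muscle-like cells (217 and 1) in the female library. Mesenchyme-like names the 18 clusters that reached the fold of no other class, and at least 9 of 10 mesenchyme markers were detected in each. Their leading genes held no mesenchyme marker, except Msx1 in cluster 12. Among the leading genes of cluster 15 (953 and 820 cells) was the epithelial gene Krt18. Among those of cluster 3 (880 and 787 cells) was the smooth muscle gene Myh11. Counts were therefore also made without cluster 15 and without both. The counts of members and pairs stayed within 1.5 times, except that without cluster 15 the members higher in the female changed, as given with the sexes.

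In mesenchyme-like cells both families were found in cells of every group, and most members had nearly the same level in both libraries. Levels are UMIs per 10000 after each cell was thinned at random to 2000 UMIs, which gives all cells the same depth. Fos, the partner of Jun in AP-1, stood at 1.01 in male and 0.930 in female cells and Jun at 1.09 and 1.23. Egr1, a zinc finger factor induced by growth factors, stood at 1.12 and 1.27. Each of these genes was thus near 1 UMI in 10000. At least 1 UMI of Fos was found in 15.4% of male and 14.4% of female thinned cells, of Jun in 15.6% and 17.98%, and of Egr1 in 15.7% and 17.3%. Without thinning the shares were 32.4% and 32.1% for Fos, 32.5% and 37.9% for Jun and 29.9% and 33.1% for Egr1.

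The remaining immediate early members covered a wide range of detection. Ier2, a nuclear protein of the early response, was found in 37.1% and 37.7% of thinned cells, and Btg1, which restrains proliferation, in 38.9% and 38.9%. Klf4, a zinc finger factor, was found in 15.6% and 15.7%, and Junb, another AP-1 subunit, in 9.09% and 7.95%. Egr2, Egr3, Klf2, Atf3, Ier3 and Fosb were each found in fewer than 1% in both libraries, from 0.217% for Klf2 in the female to 0.963% for Fosb in the male. Among the chaperones, Hspa8, the constitutive cytosolic HSP70, was found in 96.3% and 96.6% of thinned cells. Hspa1a, the stress-inducible HSP70, was found in 48.0% and 48.7% at a level of 5.66 and 5.60 per 10000, and in 66.1% and 67.8% without thinning. Its neighbour Hspa1b, found in 27.7% and 27.8%, stood at 1.91 and 1.92. Hspb1, the small chaperone HSP27, was found in 6.41% and 5.24%.

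Free RNA can place UMIs in any droplet, so the shares are set beside those of erythroid-like cells, whose median depth was 7945 and 8800 UMIs before thinning and whose UMIs were 44.3% and 42.9% haemoglobin. In these cells Hspa1a was found in 34.2% of male and 28.9% of female thinned cells (54.4% and 53.8% without thinning), Fos in 10.7% and 8.65%, Jun in 8.72% and 7.52% and Egr1 in 7.38% and 8.65%. All 9 heat shock members were found in a larger share of mesenchyme-like than of erythroid-like cells in both libraries. Of the 25 immediate early members, 5 in the male (Egr2, Ier3, Btg2, Klf2 and Klf6) and 3 in the female (Ier3, Dusp1 and Btg2) were not. Their shares over all mesenchyme-like cells thus do not rise above those of erythroid-like cells. How much of the erythroid-like shares is free RNA was not tested. Klf6 stood at 8.42% against 10.7% in the male, for example, and Klf2 at 0.276% against 0.671%, which is 1 erythroid-like cell of 149. This reading covers the class as a whole and not its parts, since Klf6 differed between mesenchyme domains and Btg2 was found together with other members more often than expected. Barcodes of 10 to 100 UMIs are taken to hold mostly free RNA. In them Hspa1b reached 420 and 429 counts per 1000000 UMIs (CPM) there against 202 and 203 in cells, which is 2.08 and 2.12 times as much, and it was the single member among those with enough counts that was at least 1.5 times higher in both libraries. Of all genes tested, 1.95% were.

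Across cell classes, endothelium-like and immune-like cells stood above mesenchyme-like cells in the summed immediate early UMIs. Per thinned cell there were 9.10 male and 9.02 female immediate early UMIs in endothelium-like cells, 6.25 and 6.69 in immune-like cells and 3.28 and 3.29 in mesenchyme-like cells. Epithelium-like cells (3.27 and 3.30) were close to mesenchyme, glia and neural crest-like cells (3.73 and 4.08) were slightly above it, and erythroid-like cells (2.01 and 1.77) were below it. Cells with at least 10 immediate early UMIs made up 38.8% and 35.7% of endothelium-like cells, 20% and 26.2% of immune-like cells and 2.47% and 2.02% of mesenchyme-like cells. The heat shock sum varied less between these classes, from 5.65 and 5.68 in erythroid-like to 13.5 and 16.8 in immune-like cells, with 10.4 and 10.8 in mesenchyme.

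**Figure D1:**
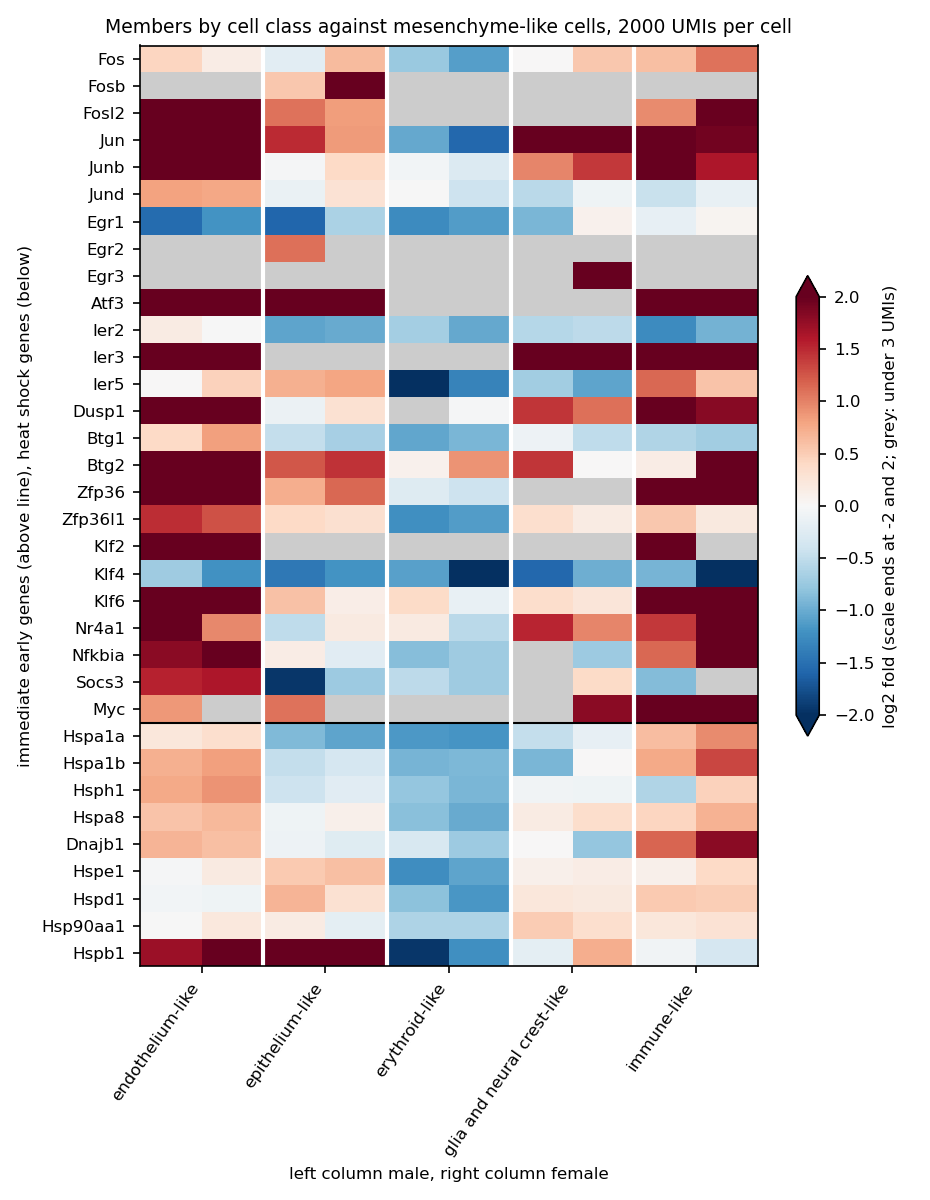
Log2 fold of each of the 34 members in 5 cell classes against mesenchyme-like cells at equal depth, male library in the left and female library in the right column of each class, colours from -2 to 2 and grey for fewer than 3 UMIs. Endothelium-like and immune-like cells are above mesenchyme for most immediate early genes, whereas erythroid-like cells are below it for most members.

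A member was counted as higher or lower in a class when its level was at least 1.5 times above or below that of mesenchyme-like cells in both libraries. In endothelium-like cells 15 of the 24 immediate early members with enough counts and 4 of 9 heat shock members were higher, against 11.7% of all genes. Klf2, a factor that endothelial cells induce under flow, stood at 1.99 and 1.47 per 10000 against 0.0147 and 0.0108 in mesenchyme, which is 135 times as much in both libraries (log2 7.08 in each, intervals 6.54 to 7.63 and 6.39 to 7.77). Btg2, an antiproliferative gene, stood at 4.23 and 4.13 against 0.189 and 0.191. Junb stood at 6.12 and 6.11 against 0.557 and 0.479, or 11.0 and 12.8 times as much. Ier3, a survival factor, was 36.4 and 51.8 times higher and Atf3, a stress-induced repressor, 22.6 and 26.6 times. The chaperones that were higher were Hspa1b, Hsph1, Dnajb1 and Hspb1, by 1.51 to 4.36 times. Egr1 stood at 0.383 and 0.556 against 1.12 and 1.27 (log2 -1.55 and -1.19) and was lower, as was Klf4, and 15.3% of all genes were lower. With another random draw of UMIs 1 of these 2 was counted. The median log2 difference was 1.81 and 1.62 over the immediate early members, 0.56 and 0.60 over the heat shock members and -0.16 and -0.13 over all genes tested. Endothelium-like cells were deeper, with a median of 12445.5 and 10266 UMIs before thinning.

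In immune-like cells 12 of 23 immediate early and 3 of 9 heat shock members were higher, against 10.4% of all genes. Atf3 stood at 1.95 and 1.89 per 10000 against 0.0215 and 0.0239 in mesenchyme, and Zfp36, which destabilises messenger RNAs of cytokines, at 2.05 and 3.36 against 0.121 and 0.0998. These are 90.7 and 78.8 times for Atf3 and 17.03 and 33.7 times for Zfp36. The higher chaperones were Hspa1a (8.68 and 10.7 against 5.66 and 5.60), Hspa1b and Dnajb1, the HSP40 partner of HSP70. Ier2, Btg1 and Klf4 were lower, where 13.8% of all genes were.

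Epithelium-like cells differed from mesenchyme in single members rather than in the sum. Hspb1, which keratinising epithelia are known to express, stood at 5.07 and 4.30 per 10000 against 0.389 and 0.309, or 13.1 and 13.9 times as much, and was found in 48.3% and 47.4% of thinned cells. It was the 1 heat shock member that was higher. Jun, Fosl2, Atf3, Ier5, Btg2 and Zfp36 were higher too, of which Fosl2 and Atf3 rested on 3 UMIs each in the female, and 6.57% of all genes were. Hspa1a, at 3.06 and 2.70 against 5.66 and 5.60, was lower, as were Egr1, Ier2, Klf4 and Socs3, and 13.0% of all genes were. Within the epithelium-like class Hspb1 and Hspa1a thus differed from mesenchyme in opposite directions.

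Glia and neural crest-like cells were set apart by Jun, which Schwann cells are known to use. It stood at 4.92 and 5.26 per 10000, or 4.50 and 4.28 times mesenchyme, and was found in 55.9% and 65.4% of thinned cells. Junb, Ier3, Dusp1, Nr4a1 and Egr3 were also higher, Egr3 on 1 and 3 UMIs, against 9.15% of all genes. Ier5, Klf4 and Nfkbia were lower, against 7.38%. In erythroid-like cells 10 immediate early and 8 heat shock members were lower and 0 were higher, where 47.3% of all genes were lower and 1.49% higher. Dnajb1 was the heat shock member not counted there. Haemoglobin takes up a large part of the UMIs of these cells.

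The muscle classes have no comparison between libraries. In the 217 male smooth muscle-like cells Fos stood at 3.59, Egr1 at 3.57 and Jun at 6.15 per 10000, and 19.4% of these cells held at least 10 immediate early UMIs. Skeletal muscle-like cells held the most heat shock UMIs of the classes in both libraries, 22.8 and 23.4 per thinned cell. Hspa8 stood at 41.9 and 42.4 per 10000 in them and Hsp90aa1, the stress-responsive cytosolic HSP90, at 26.2 and 27.5. Their immediate early sum, 2.03 and 2.55, was below that of mesenchyme.

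Within mesenchyme, the immediate early genes differed between domains more than most heat shock genes did. The cells fell into 7 domains named from markers and 6 clusters that kept their number. Over these 13 groups the highest level of an immediate early gene was a median of 3.57 times the lowest in the male and 4.32 times in the female library, taken over the 19 of 25 genes found in every group. For the 9 heat shock genes the median was 1.85 and 1.77 times. Hspe1, the mitochondrial HSP10, spanned least, 1.26 and 1.33 times, and Hspb1 most among the chaperones, 14.3 and 12.5 times. The group with the highest level was the same in both libraries for 13 of 25 immediate early and 2 of 9 heat shock genes. The spans of lowly counted genes include counting error, which is larger in small groups.

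**Figure D2:**
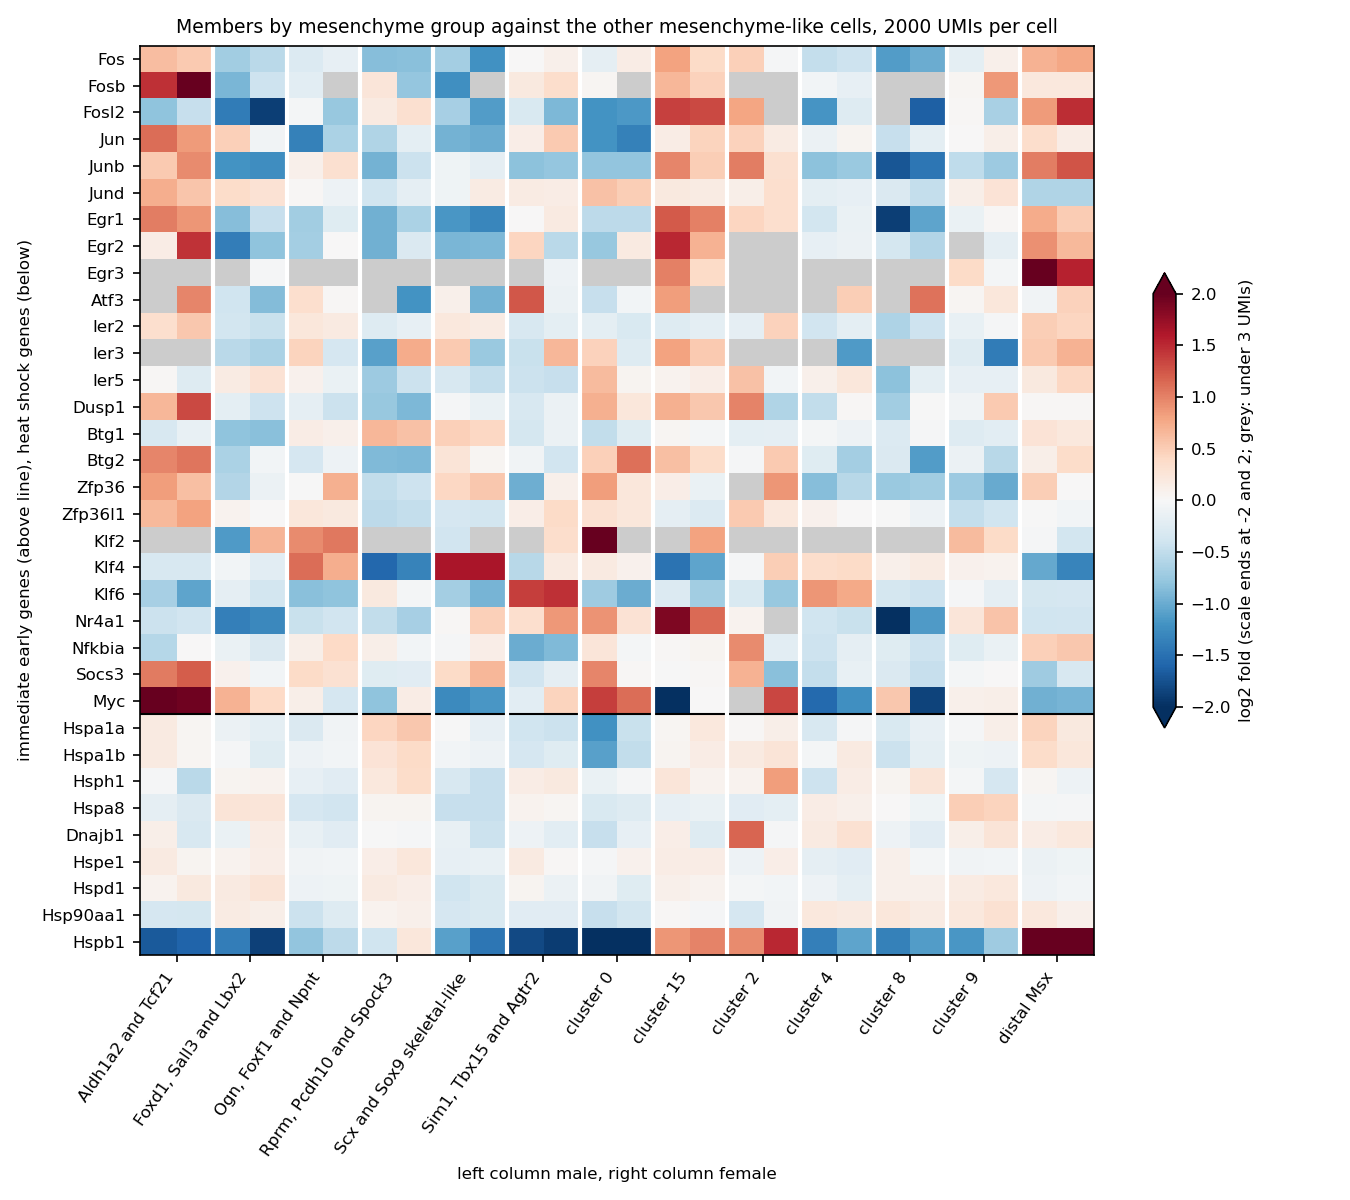
Log2 fold of each member in 13 mesenchyme groups against all other mesenchyme-like cells at equal depth, male library left and female library right in each pair of columns, colours from -2 to 2 and grey for fewer than 3 UMIs. The patterns of Hspb1, Klf4, Klf6 and Junb repeat in both libraries, and most other chaperones stay near 0.

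The highest immediate early sum lay in the Aldh1a2 and Tcf21 mesenchyme (525 male and 436 female cells), with 4.32 and 4.48 UMIs per thinned cell, and 7.05% and 5.96% of its cells held at least 10. In this domain 9 of the 23 immediate early members with enough counts were higher than in other mesenchyme-like cells, against 6.98% of all genes. They were Fosb, Jun, Egr1, Dusp1, Btg2, Zfp36, Zfp36l1, Socs3 and Myc. Jun stood at 2.29 and 2.17 against 1.05 and 1.21 and Egr1 at 2.20 and 2.29 against 1.08 and 1.24. Myc, a driver of growth and cell division, stood at 0.286 and 0.264 against 0.0631 and 0.0684 (log2 2.18 and 1.95). Klf6 and Hspb1 were lower, against 7.49%. The domain also had the highest median mitochondrial share of the 13 groups, 7.84% and 8.03%. Acta2, a smooth muscle actin, was among its leading genes, but it is also a marker that named this domain, with Aldh1a2 and Tcf21. The 6 smooth muscle markers, Acta2 included, summed to 7.36 per 10000 in the male and 2.01 in the female. These were the highest sums of the 13 groups in each library, and Acta2 made up 3.57 and 0.390 of them. The other groups held 0.725 to 1.64 and 0.776 to 1.47, and the male smooth muscle-like cells 21.2, and no marker was at 0 in this domain. The part of the mitochondrial share and of these markers in the values was not tested.

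The distal Msx mesenchyme was the largest domain (4122 and 3956 cells) and differed in AP-1 genes and in Hspb1. Fos stood at 1.41 and 1.37 against 0.873 and 0.805 elsewhere and Junb at 0.898 and 0.876 against 0.442 and 0.367. Hspb1 stood at 0.900 and 0.744 against 0.216 and 0.187, or 4.18 and 3.99 times as much. Fosl2 and Egr2 were also higher, where 4.51% of all genes were. Jund, Klf4 and Myc were lower, where 7.13% were. Fos, Fosl2 and Junb were thus higher in this domain, which is named from markers, since position was not measured. Of the 13 groups, it had the highest Fos in the female, but cluster 15 did in the male (1.69). Fosl2 was highest in cluster 15 in both libraries. Junb was highest in cluster 2 in the male (1.12) and in the Aldh1a2 and Tcf21 mesenchyme in the female (0.906). Jund, the AP-1 member least dependent on stimulation, was at 0.657 and 0.662 times the level elsewhere.

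Klf4 and Klf6, related zinc finger factors, had separate domains. Klf4 stood at 2.65 and 2.76 in the Scx and Sox9 skeletal-like mesenchyme against 0.857 and 0.893 elsewhere, or 3.096 and 3.087 times as much. It was the 1 member higher there, against 4.65% of all genes, while Fos, Fosb, Fosl2, Jun, Egr1, Egr2, Klf6, Myc and Hspb1 were lower, against 8.65%. Of these, Fosb, Egr2 and Myc rested on 6, 5 and 8 male UMIs. Klf4 was also the 1 member higher in the Ogn, Foxf1 and Npnt mesenchyme, 2.16 and 1.66 times (3.91% of genes), where Jun and Klf6 were lower (7.61%). Its lowest levels, 0.354 and 0.420, were in the Rprm, Pcdh10 and Spock3 mesenchyme. Klf6 stood at 1.04 and 1.22 in the Sim1, Tbx15 and Agtr2 mesenchyme against 0.402 and 0.443, or 2.60 and 2.76 times as much, the 1 member higher there (5.19%). Junb, Nfkbia and Hspb1 were lower in that domain (8.20%).

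In 2 domains no member was higher. In the Rprm, Pcdh10 and Spock3 mesenchyme, where 1.62% of genes were higher and 9.96% lower, the 6 lower members were Fos, Egr1, Atf3, Dusp1, Btg2 and Klf4. Atf3 rested on 1 male and 3 female UMIs, and without thinning it stood at 1.98 CPM there against 2.38 CPM in all mesenchyme-like cells of the female. Hspa1a nevertheless had its highest level of the 13 groups in this domain, 7.42 and 7.88 per 10000, and Btg1 likewise, 4.00 and 3.82. In the Foxd1, Sall3 and Lbx2 mesenchyme, where 3.21% of genes were higher and 5.40% lower, Fosl2, Junb, Egr2, Btg1, Nr4a1 and Hspb1 were lower. Egr2 rested on 6 male UMIs there. Over the 7 domains there were 17 higher and 31 lower counts of a member. In each domain 23 immediate early and 9 heat shock members had enough counts. Of all genes, 1.62% to 6.98% were higher and 5.40% to 9.96% lower, depending on the domain.

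Of the 13 groups, cluster 8, led by Hist1h2bc, Ccnb2 and Cenpa, had the lowest immediate early sum, 2.36 and 2.59 per cell, and 0.183% and 0.277% of its cells held at least 10. There 0 members were higher (1.84% of genes) and Fos, Fosb, Fosl2, Junb, Egr1, Ier3, Zfp36, Nr4a1 and Hspb1 were lower (10.5%). Of these, Fosb, Fosl2 and Ier3 rested on 1 to 3 UMIs in each library. In the male, Nr4a1 rested on 3 and Zfp36 on 8 UMIs. Cluster 4, led by Cdc20, Ube2c and Cenpf, was higher in Klf6 (4.07%) and lower in Junb, Ier3, Myc and Hspb1 (6.72%). There Ier3 rested on 2 and Myc on 4 male UMIs. Cluster 9, led by the replication genes Tk1 and Pclaf, had the highest level of Hspa8, 27.9 and 27.3 per 10000. In it 0 members were higher (4.42%) and Zfp36 and Hspb1 were lower (5.05%). Zfp36 rested on 17 male UMIs there. Without thinning it stood at 9.67 CPM against 10.6 CPM in all mesenchyme-like cells of the male. The immediate early sums of cluster 4 (2.97 and 3.14) and cluster 9 (2.99 and 3.18) were close to those of all mesenchyme-like cells.

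Cluster 0, led by Nefm, Nefl and Ebf2, had the lowest levels of Hspa1a, 2.54 and 4.16, and of Hspb1, 0.0631 and 0.0695. Myc was higher there (4.83%), and Fosl2, Jun, Junb, Klf6 and Hspb1 were lower (8.10%), Fosl2 on 7 male UMIs. In cluster 2, with 107 and 109 cells and Dlx3, Dlx2 and Nefm in the lead, Hspb1 alone was higher (5.26%), and 0 members were lower (3.74%). Cluster 15 held the highest levels of Egr1 of the 13 groups, 2.42 and 2.45, and Nr4a1, an orphan nuclear receptor, stood at 0.561 and 0.341 against 0.154 and 0.155 elsewhere. Egr1, Nr4a1, Fosl2, Egr2 and Hspb1 were higher there, against 2.35% of genes, and Klf4 was lower, against 8.11%.

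Between the sexes the medians of both families lay near 0. Over mesenchyme-like cells the median log2 ratio of male over female was 0.02 for the immediate early members, -0.03 for the heat shock members and -0.02 for all 13392 genes tested. Levels here are CPM of all UMIs summed over mesenchyme-like cells without thinning. Counting genes at least 25% higher in a sex, 4 immediate early genes lay past this limit on the male side, where 5.54% of all genes lay, and 1 heat shock gene on the female side, where 2.70% lay. Fosb, a Fos family subunit of AP-1, stood at 5.11 CPM in the male and 2.06 in the female, a log2 ratio of 1.31 (1.09 to 1.54). Klf2, whose share in the male did not rise above that of erythroid-like cells, stood at 1.79 and 0.937 CPM, a log2 ratio of 0.93 (0.58 to 1.29), and Fosl2 at 7.55 and 5.32, a ratio of 0.51 (0.35 to 0.66). Egr3, with 159 and 136 UMIs in all, stood at 1.61 and 1.16 CPM (0.48, interval 0.14 to 0.82). All 4 were rare transcripts. Hsph1, the HSP110 nucleotide exchange factor of HSP70, stood at 79.8 and 102 CPM, a log2 ratio of -0.36 (-0.40 to -0.32).

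**Figure D3:**
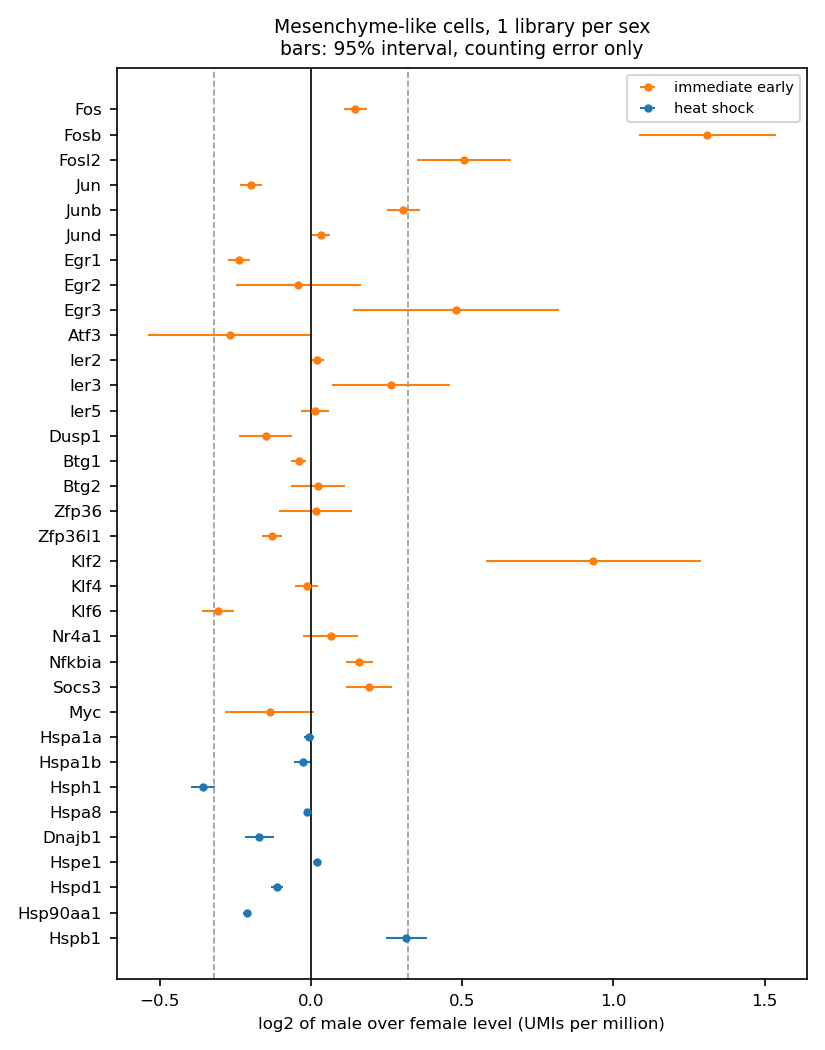
Log2 ratio of male over female CPM of each member in mesenchyme-like cells, with exact 95% intervals for counting error and dashed lines where a sex is 25% higher. Fosb, Klf2, Fosl2 and Egr3 lie above the upper line and Hsph1 below the lower line.

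The direction held across mesenchyme groups for some of these genes, though groups of a library share their pool and are not replicates. Fosb was higher in the male in 11 of 11 groups with enough counts, with 10 intervals above 0, and Fosl2 in 11 of 11 with 3. Hsp90aa1, at 1100 and 1275 CPM (log2 -0.21), was higher in the female in 13 of 13 groups, with all 13 intervals below 0. Egr1 and Hspd1, the mitochondrial HSP60, were higher in the female in 13 of 13 with 8 intervals each, and Hsph1 in 12 of 13 with 11. Hspb1 (0.32), Junb (0.31) and Klf6 (-0.31) lay just inside the limit. For Egr3 the ratio came to -0.04 after thinning to 2000 UMIs, so its direction was not kept. Hsph1 came to -0.26 after thinning, within the limit, whereas without cluster 15 there were 2 members past it on the female side, Hsph1 and Atf3 (-0.33). With cells of at most 5% mitochondrial UMIs, which left 935 male and 789 female mesenchyme-like cells, Fosb came to 0.26, and Egr1 turned to the male side at 0.29.

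Klf2 marks endothelium, so the endothelial markers in mesenchyme-like cells are given beside it. They summed to 0.131 per 10000 in male and 0.113 in female mesenchyme-like cells, against 41.3 and 37.3 in endothelium-like cells, and 5 of the 8 markers were higher in the male and none was at 0. Mesenchyme-like cells with a Klf2 UMI, 167 male and 104 female, had an endothelial marker sum of 0.180 and 0.144. Its part in the Klf2 ratio was not tested. All 10 of 10 epithelial markers were higher in male than in female mesenchyme-like cells (sums 0.279 and 0.198). So were 6 of 6 smooth muscle markers (1.34 and 1.13). The same held for 7 of 10 immune, 5 of 7 glia and neural crest, 2 of 7 erythroid and 0 of 8 skeletal muscle markers. The part of these markers in the ratios of members was not tested.

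The other genes of the pathways varied in the same range. Of 35 other immediate early genes with enough counts, 2 lay past the same limit on the male and 3 on the female side, with a median log2 ratio of 0.01. Those on the female side were Nr4a3 (-0.83), Dusp2 (-0.56) and Csrnp1 (-0.34), and those on the male side were Arc (0.44) and Cebpb (0.33). The intervals of Dusp2 (-1.18 to 0.03, on 38 and 67 UMIs) and Arc (-0.13 to 1.01, on 58 and 51 UMIs) include 0, whereas that of Cebpb, on 859 and 814 UMIs, ran from 0.19 to 0.47. Cebpb lies outside the rule for named genes and was chosen after its values were seen. Of 21 other chaperone genes, 0 lay past it on the male and 1 on the female side, Hspa4l at -0.33, with a median of -0.07. The next by size were Dnajb4 (-0.18), Stip1 (-0.17) and Chordc1 (-0.16). Of 14 upstream factors 0 lay past it, with Elk3 at -0.23, Mapk14 at -0.21, Nfkb1 at -0.20 and Hsf2 at -0.16 and a median of -0.07. Of 10 endoplasmic reticulum stress genes 0 lay past it, with Xbp1 at -0.27, Hspa5 at -0.15, Herpud1 at -0.15 and Sdf2l1 at -0.13 and a median of -0.11.

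Within single mesenchyme-like cells, immediate early genes were found together more often than their shares would give. The expected number of cells with both genes was taken from the product of their shares within each cluster and library, at 2000 UMIs per cell, and 404 of 561 member pairs had at least 20 expected cells in each library. Of 167 immediate early pairs, 32 (19.2%) were found together at least 25% more often than expected in both libraries. The same held for 1 of 36 heat shock pairs (2.78%) and 4 of 201 mixed pairs (1.99%), and for 0.216% of all gene pairs. The counts depend on the depth and the cells kept: 19 immediate early pairs passed with at least 5000 UMIs, 21 when thinned to 1000 UMIs, 87 without thinning and 2 in the few cells of at most 5% mitochondrial UMIs. Mixed pairs ranged from 2 to 25 and heat shock pairs from 0 to 2 over the alternatives. A gene found in more than 80% of cells cannot reach this ratio, which holds for 0, 15 and 50 of these pairs. The median ratios were 1.13 and 1.09 for immediate early pairs, 1.01 and 1.01 for heat shock pairs and 1.02 and 1.02 for mixed pairs.

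The immediate early pairs centred on Egr1, Junb, Fos, Nr4a1, Jun and Ier2. Egr1 and Junb each had 9 such partners among the immediate early genes, and Fos and Nr4a1 had 7. Jun and Ier2 had 6, Dusp1 had 5 and Btg2 had 4. Fos and Egr1 occurred together in 833 male cells against 450 expected and in 836 female cells against 483. Junb and Egr1 occurred together in 546 against 278 and 512 against 277 cells. Egr1 and Egr2 had the highest ratio, 2.67 and 2.38, on 57 and 50 cells. Next came Fos with Nr4a1 (2.01 and 2.05), Junb with Nr4a1 (1.99 and 2.08), Egr1 with Nr4a1 (1.94 and 1.93), Junb with Btg2 (1.99 and 1.88) and Fos with Junb (1.93 and 1.85). Egr1 with Btg2 (1.81 and 1.71) and Fos with Btg2 (1.76 and 1.68) closed the 10 highest. Jund, Btg1, Zfp36l1, Klf4, Klf6, Ier5, Nfkbia and Myc had no partner past the limit, including widely found genes such as Btg1.

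**Figure D4:**
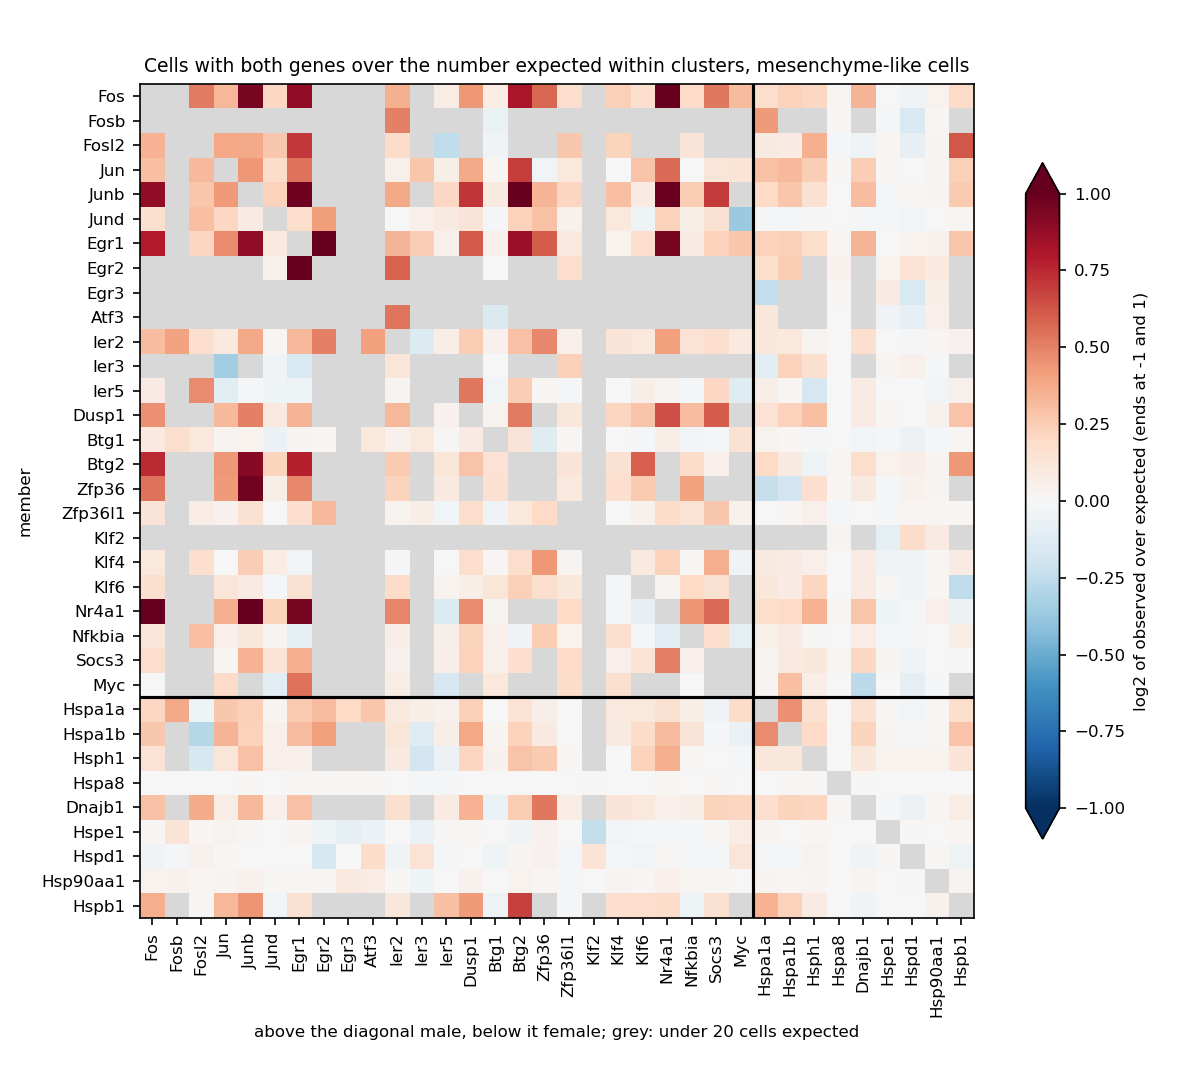
Log2 of observed over expected numbers of mesenchyme-like cells with both genes of a pair, male library above and female library below the diagonal, grey for pairs with fewer than 20 expected cells. The raised block lies among Fos, Jun, Junb, Egr1, Ier2, Dusp1, Nr4a1 and Btg2, and the Hspa1a and Hspa1b pair stands out among the chaperones.

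Hspa1a and Hspa1b were the 1 chaperone pair past the limit. They occurred together in 3054 male cells against 2226 expected (1.37) and 3431 female cells against 2468 (1.39). Without thinning the pair did not pass. Their promoter stretches, shown above, differ at 1 position. Their transcripts shared 0 of 451 stretches of 50 bases in the last 500 bases but many outside them. How reads from the shared part were counted is not known, so their co-detection is uncertain. The 4 mixed pairs were Btg2 with Hspb1 (1.35 and 1.61), Fosb with Hspa1a (1.35 and 1.30), Nr4a1 with Hsph1 (1.27 and 1.29) and Jun with Hspa1b (1.254 and 1.263). The 5 lowest pairs were close to 1 in at least 1 library. They were Klf2 with Hspe1 (0.936 and 0.846), Ier5 with Myc (0.921 and 0.892), Jund with Myc (0.771 and 0.922), Ier5 with Hsph1 (0.891 and 0.960) and Btg1 with Hspd1 (0.958 and 0.971).

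Mesenchyme-like cells with more immediate early UMIs also held more heat shock UMIs, by a larger factor for the 5 chaperones called inducible than for the 4 called constitutive. Inducible is used here for Hspa1a, Hspa1b, Hsph1, Dnajb1 and Hspb1, and constitutive for Hspa8, Hspe1, Hspd1 and Hsp90aa1, although Hsp90aa1 also responds to heat. These sets were chosen with results of these data known, so the contrast between them is a description. Inducible UMIs per thinned cell were 1.41 in male and 1.35 in female cells without an immediate early UMI. They were 1.56 and 1.60 at 1 to 2, 1.957 and 1.981 at 3 to 5, 2.35 and 2.40 at 6 to 9, 3.603 and 3.26 at 10 to 14, and 5.70 and 7.35 at 15 or more. The mean of the same clusters, weighted by the cells of each bin, stayed between 1.82 and 2.39. Constitutive UMIs per cell were 8.50 and 8.83 without an immediate early UMI and 9.11 and 11.9 at 15 or more, a bin of 63 male and 49 female cells. Their cluster mean went from 8.65 and 9.11 to 8.17 and 8.53, so the ratio to it went from 0.982 and 0.970 to 1.12 and 1.40. For the inducible genes this ratio went from 0.775 and 0.722 to 2.42 and 3.07. The median depth before thinning was 5247 male and 5182 female UMIs in cells without an immediate early UMI. At 10 to 14 it was 4681 and 4637, and at 15 or more 4015 and 3775. The part of depth in these values was not tested.

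**Figure D5:**
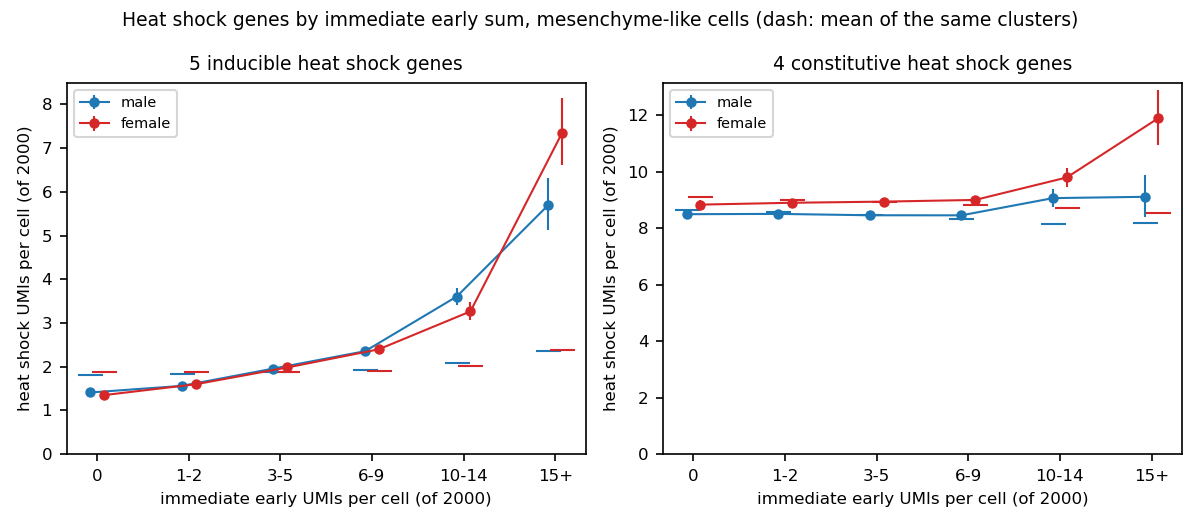
Heat shock UMIs per thinned mesenchyme-like cell by bin of the immediate early sum (0, 1 to 2, 3 to 5, 6 to 9, 10 to 14, 15 or more), for 5 inducible and 4 constitutive genes in each library, with exact 95% Poisson intervals and a dash for the mean of the same clusters. Inducible UMIs climb from 1.41 and 1.35 to 5.70 and 7.35, away from the dashes.

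Gene by gene, cells with at least 10 immediate early UMIs (403 male and 363 female) were compared with cells of at most 2 (7266 and 7667) of the same clusters. Of the 9 heat shock members 5 were at least 1.5 times higher in both libraries, against 2.30% of all genes, and 0 were lower, against 2.38%. They were Hspa1a (2.42 and 2.42 times), Hspa1b (2.16 and 2.24), Hsph1 (1.71 and 1.62), Dnajb1 (1.63 and 2.25) and Hspb1 (2.89 and 2.40). Hsp90aa1 (1.32 and 1.38), Hspa8 (1.09 and 1.13), Hspe1 (1.04 and 1.18) and Hspd1 (0.992 and 0.967) were not. The 5 higher genes are those of the set called inducible here. That set was chosen with results of these data known, so the match is no separate evidence. Because each cell is held to 2000 UMIs, a cell with more immediate early UMIs has slightly fewer left for other genes.

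Of 27 other immediate early genes, 12 were higher in the same cells (Dusp5, Maff, Cyr61, Sgk1, Srf, Gadd45b, Cebpb, Cebpd, Irf1, Rhob, Csrnp1 and Hes1), among them Cyr61, a matricellular target of serum response factor, by 3.61 and 4.24 times. For 9 of the 12 both intervals lay above 1, while those of Dusp5 and Cebpb in the female and of Cebpd in the male include 1. Of 19 other chaperone genes Hspa2 alone was higher (1.52 times on 7 male UMIs, interval 0.610 to 3.13, and 2.80 times in the female), of 14 upstream factors Crem alone (1.64 and 1.85 times), and of 10 endoplasmic reticulum stress genes 0. Markers of other cells are given beside this. Endothelial markers summed to 0.136 per 10000 in cells with at least 10 and 0.133 in cells with at most 2 immediate early UMIs in the male, and to 0.165 and 0.122 in the female. Epithelial markers summed to 0.608 and 0.263 in the male and 0.193 and 0.177 in the female, immune markers to 0.0372 and 0.0365 and to 0.0275 and 0.0326, and none of the endothelial or epithelial markers was at 0 in either library. Their part in the result was not tested.

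Across cells the correlation of both sums within clusters was weak, with r = 0.128 over 16301 male and 0.149 over 17982 female mesenchyme-like cells of a shared library and equal depth. For the inducible genes it was 0.187 and 0.196 and for the constitutive genes 0.042 and 0.067. The immediate early sum itself had r of 0.023 and 0.029 with the depth before thinning and 0.013 and 0.004 with the mitochondrial share. The median depth was nevertheless lower in the bins of 10 or more immediate early UMIs, as given above. By group, the correlation with all heat shock genes was 0.307 and 0.451 in endothelium-like and 0.410 and 0.327 in immune-like cells, on far fewer cells. For the inducible genes it was 0.235 and 0.266 in the distal Msx mesenchyme and 0.045 and 0.098 in cluster 0. Correlations of this size in sparse counts are given as a description and not as a finding.

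Among 5188 other genes, 9 of the 10 most like the immediate early sum by this measure were Malat1 (r = 0.109 and 0.095), Id1, mt-Co1, Meg3, Smad7, Eef1a1, Phlda1, Tiparp and Clk1. For the heat shock sum, 9 of the 10 were Tubb5 (0.117 and 0.113), Actg1, Gapdh, Rps2, Rrm2, Ran, Pclaf, Mif and Npm1.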

How the data were processed

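The deposited files hold raw UMI counts of 31053 genes in 6794880 barcodes per library, made with Cell Ranger 3.1 on build mm10, per the submitters' processing notes. The annotation used is not given in the sources used here. Of barcodes with at least 2000 UMIs (18549 male, 20070 female), the limit of 500 genes removed 373 and 470 and the mitochondrial limit of 10% removed 922 and 889. Scrublet marked 0% and so had not worked. No doublets were removed, and an alternative removed the 13.8% and 15.0% with the highest scores.

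Clustering used 1957 variable genes, 30 components, 15 neighbours and Leiden clusters at resolution 1 (python 3.11.15, scanpy 1.11.5, python-igraph 0.11.9). The members, the 4 other gene lists, mitochondrial and haemoglobin genes and sex-linked genes such as Xist and Ddx3y were left out of it. Classes other than mesenchyme were named, among 91 markers of 13 classes, by a mean log2 fold of at least 2 (pseudocount 5 CPM) with at least 3 markers detected. The remaining 18 clusters were called mesenchyme-like because at least 3 mesenchyme markers were detected, not by that fold: on their own markers they scored -0.88 to 0.42, with 13 below 0. The 7 domains were named by a fold of at least 1, a limit set after seeing the data. Cells were thinned to 2000 UMIs. Ratios needed 100 summed counts, and the limit was 1.5, or 25% between sexes and in pairs. Intervals are Poisson or Clopper-Pearson (scipy 1.17.1). The ratio, pair and correlation calculations were tested on simulated data. All 34 members were named by rule, with up to 4 genes from each of 4 other lists, the 10 highest and 5 lowest pairs and the 10 genes most like each sum. A result under this rule is not reported here. The members, the lists and the inducible and constitutive sets were chosen with earlier results of these data known.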

Additional observations from a re-analysis of the deposited data

Results flagged for a closer look

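Of the members with enough counts, Hspa1b was the 1 that was at least 1.5 times as abundant per UMI outside the cells as in them in both libraries. In barcodes of 10 to 100 UMIs, which enter no comparison between cell groups, it was 2.075 times as abundant per UMI as in cells in the male and 2.119 times in the female library (386 and 215 UMIs, intervals of the log2 ratio 0.90 to 1.199 and 0.88 to 1.28). Its near copy Hspa1a was at 1.15 and 1.32 times, with intervals of the log2 ratio of 0.0895 to 0.323 and 0.246 to 0.543.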

How the results depend on the processing

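No paired analysis was possible because each sex has 1 library. For the same reason no replicate could be left out. Of 216 recomputed counts, medians and correlations, 165 kept their value within the limits used, 51 moved and 0 reversed. Only a value whose interval excluded 0 could be labelled reversed. Counts and the medians near 0 could not be, so the 0 speaks for the correlations alone. Of 374 recomputed ratios of single members between the sexes, 319 kept their value, 48 moved and 7 reversed. The alternatives without barcodes found in both libraries, without cluster 15 and without clusters 3 and 15 were chosen after seeing the data. Without cluster 15, 2 members were higher in the female. Where no construction is named, the cause was not tested.

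With at least 5000 UMIs, 2 members were higher in the female, 1 was lower in endothelium-like cells, 19 immediate early and 2 mixed pairs passed, r was 0.112 and 0.119, and the log2 ratio of Hspa8 was 0.0146. With at most 5% mitochondrial UMIs, which left 935 and 789 mesenchyme-like cells, the medians were 0.10 and -0.13 for both families, and Egr1 (0.29), Dusp1 (0.43), Zfp36l1 (0.080) and Hspa8 (0.0022) reversed. Higher and lower members then numbered 3 and 1 in endothelium-like, 3 and 8 in epithelium-like, 2 and 0 in glia and neural crest-like and 8 and 1 in immune-like cells, and 1 was higher in erythroid-like cells. Domain counts were 10 higher and 11 lower, 2 immediate early and 2 heat shock pairs passed, and r in the female was 0.171.

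Thinned to 1000 UMIs, 1 member was lower in endothelium-like, 2 higher in epithelium-like and 1 higher in erythroid-like cells, 21 immediate early and 8 mixed pairs passed, and r was 0.0721 and 0.0963. With another seed, 1 was lower in endothelium-like cells. Not thinned, depth enters the pairs: 87 immediate early, 0 heat shock and 25 mixed pairs passed, and r was 0.618 and 0.736. With a minimum of 500 counts, 2 members were higher in the male. With thinned cells for the sex ratio, 0 were higher in the female and Egr3 came to -0.039. With domains weighted alike, Hspa8 came to 0.00021. With the members and the other gene lists kept for clustering, 18 were lower over the domains. With all mesenchyme-like cells as 1 stratum, 2 heat shock and 9 mixed pairs passed and r was 0.110 and 0.127. The correlation r was 0.0883 and 0.113 for log2 sums, 0.187 and 0.196 for inducible and 0.0422 and 0.0670 for constitutive genes, and 0.154 and 0.180 without Btg1, Zfp36l1, Jund and Myc. Low counts limit Egr3, Klf2, Atf3 and Fosb, and class sizes limit glia and neural crest-like and immune-like cells.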
